A study of Sus scrofa with 24 samples.

Results

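Outer zone cells of the pig meniscus were stretched with or without interleukin-1α (IL-1), and the comparison described here is the effect of IL-1 in those stretched cells. It used 6 of the 24 libraries of the series, namely the 3 libraries of cells given stretch alone and the 3 given stretch and IL-1 together, and every gene with at least 10 reads in any of the 24 libraries, which left 13653 of 25880 genes. The whole series crossed zone (inner or outer), stretch and IL-1 in cultured medial meniscus cells of Sus scrofa, with mRNA sequencing as the readout. The tissue came from skeletally mature female pigs, and the outer zone was the larger, peripheral part of the meniscus. Cells from several menisci were pooled and expanded for 1 passage in medium with serum, so a library is a well of pooled cells and not an animal. All 6 wells stood on flexible membranes coated with collagen I and received 1 bout of equibiaxial stretch of 5% at 0.5 Hz for 4 h. The IL-1 wells also held recombinant porcine IL-1α at 0.1 ng/mL, added with fresh medium before the bout, and RNA was taken when the bout ended. The controls were therefore stretched too, and the comparison asks what IL-1 did in cells under load. No genotype, transgene or sorted fraction was involved. The wells are numbered 4, 5 and 6 in each outer zone group, and values below follow that order. In the titles, a prefix number goes with the treatment (61 for stretch, 62 for stretch with IL-1), so whatever that number stands for and IL-1 itself cannot be told apart. P-values measure the spread between wells.

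IL-1 binds a receptor that recruits MYD88 and IRAK kinases and frees NF-κB, a family of transcription factors that switch on cytokine, chemokine and protease genes together with the genes of their own inhibitors. In the meniscus and in articular cartilage, IL-1 is known as a driver of inflammation after injury and of enzymes that cut aggrecan and collagen. Interferon-stimulated genes are a separate programme, driven mainly by STAT and IRF factors that bind a site called the ISRE, and they can be switched on downstream of inflammatory cytokines.

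The promoters of some genes from both programmes are shown as examples that hold a searched motif. IL6, CXCL2 and NFKBIA stand for genes with a κB match that rose with IL-1. ISG15 and IDO1 stand for genes with an ISRE match, and CXCL10 for a gene with both. The levels and tests of expression below do not rest on these matches. Each line holds the 250 bases before the gene start given by RefSeq for Sscrofa11.1, written 5′ to 3′ on the strand of the gene. Capitals mark matches to the κB motif (GGGANNTTCC) or to the ISRE motif (GAAANNGAAA), searched on both strands. The IL6 match begins 72 bases before the start (chr9:91506171-91506420, plus strand). In CXCL2 (chr8:70157003-70157252, plus strand) a pair of κB matches on opposite strands overlap, at 112 and 111 bases before the start. The NFKBIA match lies at 193 bases (chr7:64507869-64508118, plus strand). CXCL10 (chr8:71695949-71696198, minus strand) holds an ISRE match at 225 bases and a κB match at 181 bases. ISG15 (chr6:63362951-63363200, plus strand) holds 3 ISRE matches, at 134, 128 and 108 bases, of which the first and the second overlap. IDO1 (chr17:9245033-9245282, plus strand) holds ISRE matches at 229 and 148 bases.
IL6: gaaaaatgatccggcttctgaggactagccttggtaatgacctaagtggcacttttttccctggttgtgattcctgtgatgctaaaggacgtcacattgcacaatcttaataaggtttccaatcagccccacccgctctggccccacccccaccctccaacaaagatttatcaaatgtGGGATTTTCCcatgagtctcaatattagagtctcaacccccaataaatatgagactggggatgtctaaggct
CXCL2: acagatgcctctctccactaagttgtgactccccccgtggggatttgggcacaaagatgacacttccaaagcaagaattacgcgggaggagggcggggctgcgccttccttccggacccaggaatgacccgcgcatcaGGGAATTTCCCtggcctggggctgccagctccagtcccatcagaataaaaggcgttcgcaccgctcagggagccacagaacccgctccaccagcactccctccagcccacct
NFKBIA: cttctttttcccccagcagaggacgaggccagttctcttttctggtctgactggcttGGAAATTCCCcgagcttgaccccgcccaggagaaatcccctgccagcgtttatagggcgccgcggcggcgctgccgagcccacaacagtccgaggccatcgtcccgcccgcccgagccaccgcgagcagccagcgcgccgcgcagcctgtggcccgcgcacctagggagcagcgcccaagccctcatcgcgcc
CXCL10: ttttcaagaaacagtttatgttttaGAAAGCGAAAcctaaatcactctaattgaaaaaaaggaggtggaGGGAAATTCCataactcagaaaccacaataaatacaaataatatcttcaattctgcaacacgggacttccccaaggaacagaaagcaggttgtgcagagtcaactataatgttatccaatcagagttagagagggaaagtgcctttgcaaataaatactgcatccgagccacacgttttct
ISG15: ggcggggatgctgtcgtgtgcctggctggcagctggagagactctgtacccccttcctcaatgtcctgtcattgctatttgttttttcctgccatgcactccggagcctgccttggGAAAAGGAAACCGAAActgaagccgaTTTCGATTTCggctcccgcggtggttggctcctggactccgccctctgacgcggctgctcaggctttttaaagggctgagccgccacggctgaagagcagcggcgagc
IDO1: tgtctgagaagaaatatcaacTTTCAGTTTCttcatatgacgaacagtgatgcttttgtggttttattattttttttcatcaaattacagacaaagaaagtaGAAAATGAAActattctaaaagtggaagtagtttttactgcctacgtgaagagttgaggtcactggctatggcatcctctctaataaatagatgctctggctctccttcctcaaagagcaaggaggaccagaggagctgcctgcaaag

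Across the 11683 tested genes with a RefSeq window of 300 bases, from 250 before the start to 50 after it, 2.32% held the κB motif and 2.96% the ISRE motif. Among the 758 genes with a window that IL-1 raised over 2-fold, the shares were 4.22% and 6.2%. Among the 634 that it lowered they were 2.21% and 2.68%. Another motif, AP-1 (TGANTCA), was in 4.73% of all windows, 7.12% of the raised and 5.84% of the lowered. Of the chemokine genes with a window, 4 of 14 held the κB motif, as did 5 of 27 genes of NF-κB subunits and inhibitors. It was in 0 of 21 windows of the prostaglandin and nitric oxide list, 0 of 45 of immediate-early and AP-1 genes, 0 of 38 of growth factors and 0 of 20 of the IL-1 receptor pathway, lists that also held genes raised by IL-1. The ISRE motif was in 21 of 53 windows of interferon-stimulated genes and in 7 of 15 windows of MHC class I antigen processing genes. A match is only a match of letters. CCL20, NOS2 and TNF, each raised by IL-1, had none of the 3 motifs in this window, and CTGF, a gene that fell, had a κB match.

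The 6 libraries held between 29373385 and 35284474 reads in genes, and levels are given as CPM, reads of a gene per 1000000 reads in genes, scaled by the TMM method for composition. Spearman's correlation across genes was 0.997 to 0.998 between wells of a group and 0.965 to 0.972 between wells of the groups compared. Markers of fibroblasts and fibrochondrocytes, among them COL1A1, COL1A2 and DCN, summed to 106791 to 119205 CPM in the stretched wells and 109481 to 112149 CPM with IL-1. Only 3 of 10 endothelial markers passed the filter on low counts, and their sum of 8.82 to 9.69 CPM, 6.90 to 8.00 CPM with IL-1, was nearly all PECAM1. CDH5, VWF and KDR had 10, 12 and 14 reads over the 6 libraries. Of 13 leukocyte markers 6 passed, with sums of 24.8 to 29.8 CPM and 40.9 to 44.1 CPM, nearly all from CD14 (22.9, 27.3 and 22.6 CPM, then 40.8, 38.4 and 40.8 CPM with IL-1), a co-receptor that connective tissue cells can also carry. PTPRC, the pan-leukocyte marker, had 1 read over the 6 libraries and CD3E had 0. Mural cell markers (11 of 12 passed) summed to 910 to 1014 CPM and 746 to 757 CPM, and adipocyte markers (2 of 6) to 1.83 to 2.50 CPM and 2.08 to 2.27 CPM. The leukocyte sum was higher and the mural and endothelial sums were lower with IL-1, without overlap, and their part in the results was not tested. In bulk RNA, fewer cells of a type and less RNA per cell cannot be told apart.

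IL-1 changed the stretched outer zone cells broadly. At an adjusted p under 0.05 and a change over 2-fold, 1646 genes were called (12.1% of those tested), of which 876 rose (6.42%) and 770 fell (5.64%), by edgeR's quasi-likelihood test with Benjamini-Hochberg adjustment over all 13653 genes. Rises reached further than falls: 202 genes rose over 8-fold against 29 that fell that far, and 56 against 1 passed 32-fold. The median log2 change was 1.83 among the raised, -1.36 among the lowered and -0.030 among all genes. The wells of the 2 groups did not overlap for 1606 of the 1646 called genes (62.3% of all tested genes did not overlap). The raised genes took 3.43% to 3.73% of reads in the stretched wells and 13.1% to 14.3% with IL-1, whereas the lowered genes took 1.27% to 1.31% and 0.437% to 0.446%. Of the calls, 418 were genes under 1 CPM in both groups. The split between rises and falls depends on scaling: with upper-quartile factors, which move the median of all genes to -0.16, 771 genes rose and 998 fell. At any fold change, 8107 genes (59.4%) passed an adjusted p of 0.05, 3886 rises (28.5%) and 4221 falls (30.9%), and "rose" and "fell" in the gene lists below mean that test. Each list count is to be set against these shares. A list near them changed no more often than genes at large.

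Chemokines, the signals that draw leukocytes into a tissue, rose steeply: 12 of the 14 tested genes of the list rose, each over 2-fold, and the median log2 change of the list was 3.66. The other 2 did not pass. CCL20 (ENSSSCG00000016254; chromosome 15, 129172743 to 129176069 in Sscrofa11.1), which attracts CCR6-bearing lymphocytes, stood at 0.981, 1.84 and 1.17 CPM in the stretched wells and at 2348, 2168 and 2157 CPM with IL-1. The 3 wells with IL-1 lay close together and far above the controls. Its log2 change was 10.70 ± 0.35 (SE; adjusted p = 1.4e-14), or 1669-fold. CXCL8, or interleukin-8, the classical neutrophil attractant, went from 12.1, 9.81 and 9.37 CPM to 1033, 968 and 1092 CPM. Its groups did not overlap and differed 99.1-fold (adjusted p = 9.76e-16). CXCL2, another neutrophil chemokine, read 52, 54.4 and 50.6 CPM without and 2114, 2129 and 2479 CPM with IL-1, a log2 change of 5.42 ± 0.12 (adjusted p = 3.02e-17). AMCF-II, a pig chemokine of the same CXC family, read 406, 333 and 321 CPM and 3716, 3658 and 3715 CPM, a log2 change of 3.39 ± 0.11 (adjusted p = 7.46e-15). CXCL8, CXCL2 and AMCF-II lie within 1 cluster on chromosome 8 and are related in sequence, so reads that fit more than 1 of them were dropped before counting and their levels are uncertain to that extent. CCL2, which recruits monocytes, was at 101, 115 and 90.1 CPM and 1028, 926 and 954 CPM, 9.51-fold higher with IL-1. CXCL10, an interferon-inducible chemokine for T cells, was the exception in its spread: it read 0.285, 0.391 and 0.131 CPM in the stretched wells and 43.2, 32.3 and 17.6 CPM with IL-1, so the wells with IL-1 differed by more than 2-fold among themselves while all stood above the controls (log2 change 6.86 ± 0.55, adjusted p = 6.95e-09).

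**Figure D1:**
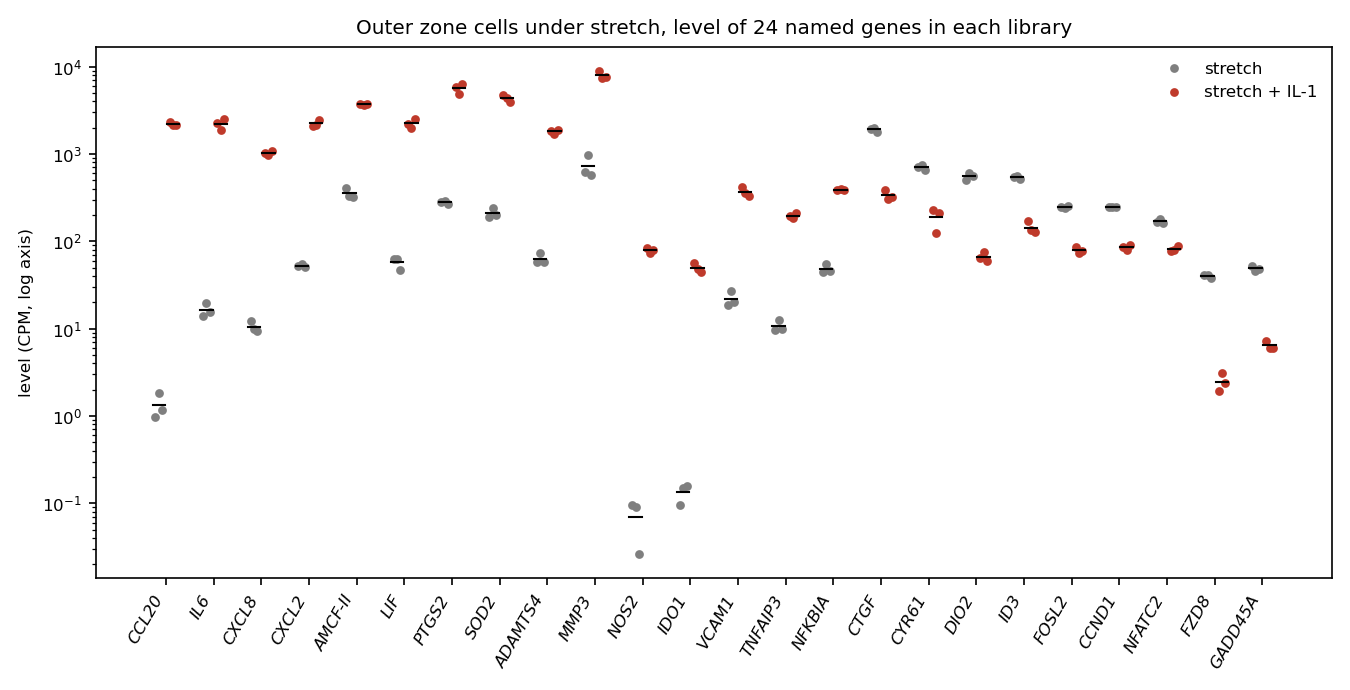
Level of 24 genes in each of the 6 libraries, in CPM on a log axis, with grey points for the 3 stretched wells and red points for the 3 stretched wells with IL-1, and a short line at each group mean. CCL20 moved from a mean of 1.33 to 2224 CPM, IL6 from 16.5 to 2203 CPM and CTGF down from 1908 to 338 CPM, while the points of a group mostly lie on top of each other.

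Cytokines and colony-stimulating factors rose too, with 21 of 26 tested genes up, 2 down and a median log2 change of 2.01. IL6 (ENSSSCG00000020970; chromosome 9, 91506421 to 91510830), a cytokine raised in arthritic joints, was at 14, 19.7 and 15.6 CPM in the stretched wells and at 2251, 1864 and 2493 CPM with IL-1. The lowest well with IL-1 was the middle one, and still far above the controls. The log2 change was 7.06 ± 0.18, or 134-fold (adjusted p = 6.07e-16). The other cytokines that signal through the same gp130 receptor chain followed: LIF went from 62, 62.7 and 46.9 CPM to 2231, 1973 and 2505 CPM, and IL11 from 32.7, 34.9 and 25.3 CPM to 1017, 752 and 1021 CPM. Both had the lowest of their IL-1 values in well 5, as IL6 did, and changed by 5.29 and 4.91 on the log2 scale (adjusted p = 8.23e-16 and 5.7e-15). TNF had 0 reads in all 3 stretched wells and 9.45, 8.4 and 12.6 CPM with IL-1. Against 3 reads over the stretched group it was at least 348-fold higher (adjusted p = 2.96e-22). IL1A, the gene of the cytokine that was added, itself rose from 0.158, 0.241 and 0.104 CPM to 20.1, 17.5 and 22.2 CPM (118-fold, adjusted p = 1.6e-26). The granulocyte factors were nearly silent without IL-1. CSF2 (GM-CSF) read 0, 0.0903 and 0.0261 CPM and then 20.2, 14.7 and 25.3 CPM, and CSF3 (G-CSF) read 0.19, 0.15 and 0.0783 CPM and then 22.3, 18.7 and 20.1 CPM, with log2 changes of 8.87 ± 0.45 and 7.19 ± 0.21 (adjusted p = 2.08e-11 and 1.14e-24). CSF1, the macrophage factor, was already at 185, 195 and 177 CPM and rose only 1.63-fold (adjusted p = 1.7e-13).

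The IL-1 pathway's own components split. Of 20 tested genes 10 rose and 4 fell, with a median log2 change of 0.18, or 10 and 7 with upper-quartile factors (median 0.0514). IRAK2, the kinase that sustains signalling, rose from 1.33, 2.23 and 1.8 CPM to 36.4, 37.9 and 38.2 CPM (20.9-fold, adjusted p = 3.14e-29), MAP3K8 by 8.47-fold and IRAK3, an inhibitory IRAK, by 2.72-fold. The adaptor MYD88 rose 1.56-fold (adjusted p = 6.04e-11) and the scaffold TAB2 fell 1.22-fold (adjusted p = 1.57e-06). TOLLIP, an inhibitor of the receptor complex, was at 129, 136 and 124 CPM and 124, 132 and 123 CPM, with groups that overlapped (log2 change -0.038 ± 0.049, adjusted p = 0.523; with upper-quartile factors it passed as a fall of 0.17 on the log2 scale).

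Of 27 tested genes of NF-κB subunits and inhibitors, 23 rose and 2 fell, and the median log2 change was 0.996. The inhibitors are given first. TNFAIP3 (A20), an enzyme that edits ubiquitin chains and shuts the pathway down, read 9.58, 12.4 and 9.87 CPM in the stretched wells and 192, 187 and 209 CPM with IL-1. The spread within the IL-1 group was small, and the change was 18.4-fold (log2 4.21 ± 0.069, adjusted p = 7.68e-30). ZC3H12A (regnase-1), which degrades cytokine mRNA, read 12.3, 15 and 12.5 CPM and 176, 182 and 196 CPM. NFKBIA, the inhibitor that holds NF-κB in the cytoplasm and whose promoter is printed above, read 44, 55.6 and 46.3 CPM and 389, 392 and 384 CPM (7.99-fold, adjusted p = 4.11e-25). Neither gene's groups overlapped. NFKBIZ, a nuclear cofactor for IL6 induction, rose 8.63-fold and TNIP1, a partner of A20, 5.43-fold. Among the subunits, NFKB2 rose by 5.7-fold, NFKB1 by 5.47-fold, RELB by 3.03-fold and RELA by 1.62-fold, from means of 80.6, 69.6, 47.5 and 159.5 CPM (adjusted p of 4.7e-16 for RELA and lower for the other subunits named). BIRC3, a survival factor downstream of NF-κB, rose 1.87-fold (adjusted p = 3.82e-10).

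Interferon-stimulated genes rose as a group, although the wells with IL-1 differed in how far. Of 55 tested members 50 rose, 36 of them over 2-fold, the wells did not overlap for 50, and the median log2 change was 1.35. The other 5 members did not pass. The summed level of the list was 1521, 1871 and 1612 CPM in the stretched wells and 5431, 4014 and 3603 CPM in wells 4, 5 and 6 with IL-1. Well 4 held the highest value for 48 of the 50 members that rose and well 6 the lowest for 42, so these genes were graded together across the 3 wells. ISG15, a ubiquitin-like antiviral protein, read 23.9, 43.6 and 27.3 CPM without and 217, 151 and 118 CPM with IL-1. IFIT2, which binds viral RNA, read 5.38, 8.52 and 6.03 CPM and 128, 79.7 and 57.6 CPM, and RSAD2 (viperin) read 5.28, 7.46 and 4.65 CPM and 142, 69.8 and 46.4 CPM. Each was highest in well 4 and lowest in well 6 of the IL-1 group, and none overlapped with the controls. Their log2 changes were 2.36 ± 0.23, 3.74 ± 0.29 and 3.90 ± 0.42 (adjusted p = 1.13e-07, 3.28e-09 and 3.09e-07). IDO1, the enzyme that breaks down tryptophan, was less graded, from 0.0949, 0.15 and 0.157 CPM to 56.8, 48.3 and 43.9 CPM (355-fold, adjusted p = 2.81e-14). IRF1, a transcription factor of this programme, read 16.2, 17.3 and 16.8 CPM and 136, 111 and 84.1 CPM (6.59-fold). MX1 rose 3.13-fold, IFIT1 6.33-fold and DDX58, the RNA sensor RIG-I, 4.82-fold (adjusted p = 2e-07, 3.12e-08 and 7.51e-08). STAT2, which carries the interferon signal to the nucleus, is a member that did not pass: 42.2, 44.4 and 42 CPM against 44.2, 41 and 39.4 CPM, overlapping groups and a log2 change of -0.044 ± 0.070 (adjusted p = 0.614; with upper-quartile factors it passed as a fall of 0.18 on the log2 scale). WARS, at 138, 139 and 135 CPM and 144, 141 and 141 CPM, did not pass either (adjusted p = 0.588).

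Antigen processing for MHC class I, the machinery that loads peptides for display to T cells, rose in 15 of 16 tested genes, with a median log2 change of 0.98. PSMB9, an immunoproteasome subunit, read 2.09, 2.38 and 1.64 CPM and then 9.55, 7.52 and 5.99 CPM, with well 4 again the highest and well 6 the lowest. The peptide transporter TAP2 rose from 52.1, 52.7 and 49.8 CPM to 121, 113 and 104 CPM (2.19-fold, adjusted p = 9.64e-20). CALR, a chaperone of the loading complex, rose 1.24-fold and NLRC5, the transactivator of MHC class I genes, 2.61-fold from a mean of 0.911 CPM (adjusted p = 3e-10 and 0.00242). CD274 (PD-L1), an immune checkpoint ligand from the adhesion list, was graded too, from 0.728, 0.662 and 0.47 CPM to 13.1, 6.83 and 4.67 CPM (13.3-fold, adjusted p = 3.06e-06).

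Enzymes and transporters behind prostaglandins and nitric oxide rose in 15 of 21 tested cases and fell in 3, with a median log2 change of just over 1. PTGS2 (COX-2), which makes the prostaglandin precursor, read 285, 289 and 264 CPM in the stretched wells and 5789.5, 4889 and 6279 CPM with IL-1, in every IL-1 well many times the highest control (20.3-fold, log2 4.34 ± 0.085, adjusted p = 7.97e-19). The prostaglandin E synthase PTGES followed, from 20.1, 22.7 and 21.3 CPM to 257, 239 and 222 CPM (11.2-fold, adjusted p = 3.25e-17). PLA2G4A, the phospholipase that supplies arachidonic acid, rose 3.65-fold; its annotated span overlaps that of PTGS2 on chromosome 9, so its count is uncertain. NOS2, the inducible nitric oxide synthase, was at 0.0949, 0.0903 and 0.0261 CPM and then at 84.3, 73.8 and 79.1 CPM. It was close to silent in all 3 controls, and the log2 change was 10.10 ± 0.26 (adjusted p = 6.02e-17). SLC7A2, which imports the arginine that NOS2 uses, rose from 0.664, 0.813 and 0.444 CPM to 87.6, 63.7 and 64.3 CPM, and ARG1, which consumes arginine, from 0.538, 0.632 and 0.235 CPM to 25.4, 16.1 and 23.5 CPM. Neither pair of groups overlapped (adjusted p = 1.47e-14 and 9.02e-15).

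Matrix-degrading enzymes rose in 23 of 40 tested cases and fell in 5, with a median log2 change of 0.29, and 9 rose over 2-fold. The summed level of the list was 5621, 6938 and 5668 CPM in the stretched wells and 19515, 16836 and 17572 CPM with IL-1, without overlap. ADAMTS4 (ENSSSCG00000006359; chromosome 4, 89260354 to 89269238), an aggrecan-cutting enzyme, read 57.4, 72.8 and 57.7 CPM and 1843, 1708 and 1874 CPM. The wells with IL-1 differed little from each other, and the change was 28.9-fold (log2 4.85 ± 0.086, adjusted p = 3.89e-20). ADAMTS5, the other main aggrecanase, read 42.7, 51 and 45.7 CPM and 318, 280.5 and 266 CPM (6.2-fold, adjusted p = 2.32e-12). MMP3 (stromelysin-1), which cuts proteoglycans and activates collagenases, read 614, 962 and 579 CPM and 8874, 7332 and 7597 CPM, with control well 5 above the other controls. It rose 11-fold (adjusted p = 5.24e-12). MMP13, a collagenase, showed the same raised control: 18.8, 65.2 and 24.6 CPM in the stretched wells and 240.4, 146 and 143 CPM with IL-1, a log2 change of 2.29 ± 0.47 (adjusted p = 0.000421). MMP12, a macrophage elastase in other settings, rose from 0.19, 0.482 and 0.287 CPM to 76.3, 60.7 and 72.1 CPM (215-fold). MMP14 and MMP2, an activator and its substrate gelatinase, were at means of 1019 ± 90.3 and 1225 ± 144 CPM (SD, n = 3) without IL-1 and rose 1.52-fold and 1.4-fold (adjusted p = 1.24e-12 and 2.19e-05). PLAU, the urokinase, rose 2.24-fold and CEMIP, which depolymerises hyaluronan, 1.76-fold. ADAMTS2, which trims procollagen, was at 131, 158 and 137 CPM and 143, 134 and 137 CPM with overlapping groups (adjusted p = 0.644; with upper-quartile factors it passed as a fall of 0.17 on the log2 scale).

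Protease inhibitors rose in 10 of 19 tested cases and fell in 3 (median log2 change 0.14), or 6 and 5 with upper-quartile factors (median 0.0105). TIMP1, the metalloproteinase inhibitor, rose from 409, 390.4 and 349.8 CPM to 893, 774 and 876 CPM (2.21-fold, adjusted p = 2.7e-13). TIMP3, which blocks the aggrecanases, rose 1.38-fold (adjusted p = 5.08e-06) and SERPINE2 1.74-fold (adjusted p = 5.52e-13).

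Of 26 tested collagens 4 rose and 6 fell (median log2 change 0.019), and 3 rose and 16 fell with upper-quartile factors, where the median turned negative. Of the 4 rises 3 were over 2-fold, all in collagens at low levels: COL11A2 read 0.348, 0.752 and 0.47 CPM and 1.16, 1.83 and 1.15 CPM, COL13A1 0.19, 0.301 and 0.365 CPM and 0.546, 0.657 and 0.913 CPM, and COL21A1 0.316, 0.12 and 0.313 CPM and 0.751, 0.584 and 0.44 CPM. They changed 2.61-fold, 2.41-fold and 2.33-fold (adjusted p = 6.71e-05, 0.00767 and 0.00689). The COL13A1 call was lost without IL-1 well 6 and the COL21A1 call without control well 5 or IL-1 well 4 (adjusted p = 0.0596, 0.0519 and 0.0541). COL1A1, the main fibrillar collagen of the meniscus, was at 51719.5, 58743 and 51844 CPM and 56703, 54030 and 56859 CPM, and COL1A2 at 28159.7, 31410.3 and 28529 CPM and 29962, 30138 and 29561 CPM. Both overlapped between groups and did not pass (adjusted p = 0.563 and 0.633; with upper-quartile factors COL1A2 passed as a fall of 0.11 on the log2 scale). COL3A1 fell 1.11-fold (adjusted p = 0.0106), a call lost without control well 5 (adjusted p = 0.0986). COL12A1 fell 1.15-fold and COL15A1 1.27-fold, and the COL12A1 call was lost when the 6 libraries were fitted alone (adjusted p = 0.125). Glycoproteins of the matrix split 7 up and 10 down among 37 tested (median -0.026), or 4 and 20 with upper-quartile factors. Of all genes, 28.5% rose and 30.9% fell. THBS1, a matricellular protein, rose from 9228, 9282 and 8636 CPM to 18858, 18967 and 21297 CPM (2.18-fold, adjusted p = 2.55e-17) and osteopontin, SPP1, rose 2.17-fold. Fibronectin, FN1, was at 4174, 4542 and 4185 CPM and 4206, 3885 and 4363 CPM with overlapping groups (adjusted p = 0.293; with upper-quartile factors it passed as a fall of 0.18 on the log2 scale). TNC was at 15091, 17136 and 15048 CPM and 17323, 15529 and 18259 CPM, also overlapping (adjusted p = 0.168; it passed as a rise of 0.18 without either well 5).

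Proteoglycan and hyaluronan genes rose in 12 of 30 tested cases and fell in 8, with a median log2 change of 0.12, against 9 rises, 12 falls and a negative median with upper-quartile factors. TNFAIP6 (TSG-6), a hyaluronan-binding protein secreted in inflammation, read 18.8, 19.2 and 17.5 CPM and 296, 285 and 262 CPM, far apart and tight within each group (15.2-fold, adjusted p = 9.8e-19). SDC4, a heparan sulfate proteoglycan of the cell surface, read 142, 149 and 131 CPM and 1514, 1366 and 1477 CPM (10.3-fold, adjusted p = 5.15e-35). The hyaluronan receptor CD44 rose 2.56-fold and versican, VCAN, 2.23-fold. Aggrecan, ACAN, the load-bearing proteoglycan of fibrocartilage, fell from 235, 310.5 and 257 CPM to 192, 177 and 187 CPM, without overlap (log2 change -0.53 ± 0.11, adjusted p = 0.000409). CSPG4, a surface proteoglycan of mural and progenitor cells, fell 1.67-fold (adjusted p = 2.8e-11). Biglycan and decorin, the small leucine-rich proteoglycans that coat collagen fibrils, did not pass: BGN was at 2994, 3093 and 2976 CPM and 3094, 3138 and 3128 CPM and DCN at 366, 421 and 368 CPM and 424, 388 and 393 CPM (adjusted p = 0.259 and 0.27). BGN passed as a fall of 0.086 on the log2 scale with upper-quartile factors, and DCN as a rise of 0.13 without control well 5.

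**Figure D2:**
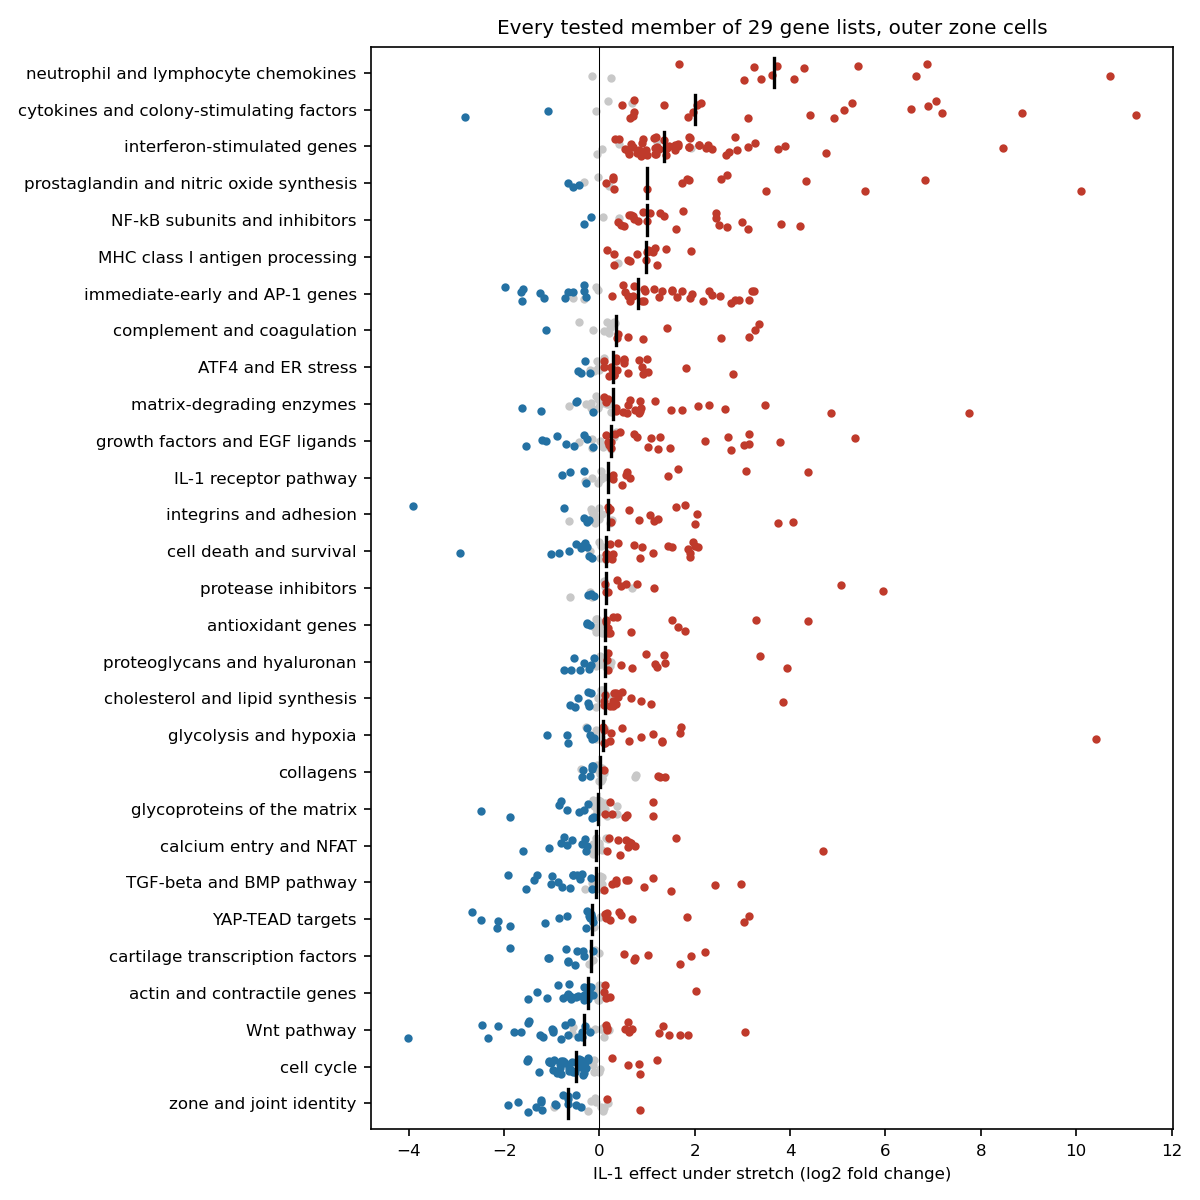
Log2 change with IL-1 of every tested member of the 29 gene lists, 1 row of points per list, red where the gene rose and blue where it fell at an adjusted p under 0.05, grey otherwise, with a black bar at the list median. The medians of chemokines (3.66), cytokines (2.01) and interferon-stimulated genes (1.35) lie to the right, those of cell cycle (-0.49) and identity genes (-0.65) to the left, and that of the collagens near 0 (0.019), with 3 collagens beyond a 2-fold rise.

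Transcription factors of cartilage and connective tissue leaned downwards, with 7 of 22 up, 11 down and a median log2 change of -0.18. NFATC2, a calcineurin-regulated factor, fell from 167, 181 and 163 CPM to 77.6, 80 and 87.7 CPM, without overlap (2.08-fold, adjusted p = 1.97e-17). TRPS1 fell 1.38-fold. SOX9, the master factor of chondrocytes, was low here, at 11.2, 14.9 and 14.6 CPM and 11.2, 9.86 and 10.9 CPM. Its fall of 1.28-fold (adjusted p = 0.0147) was lost without control well 5, without control well 6 and without IL-1 well 5, with adjusted p of 0.0711, 0.0705 and 0.0631. RUNX1, SOX5 and FOXC2 rose, by 2.03-fold, 3.24-fold and 4.64-fold, FOXC2 from only 2.29 CPM.

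The TGF-β and BMP list had 11 of 36 up and 16 down (median -0.080), against 28.5% and 30.9% of all genes. INHBA, which encodes the activin A subunit, read 56.8, 64.7 and 53 CPM and 512, 278 and 569.8 CPM, with IL-1 well 5 well below its neighbours and still above every control (7.8-fold, adjusted p = 6.98e-10). BMP2 rose from 1.83, 2.77 and 1.54 CPM to 10, 10.9 and 11.8 CPM (5.37-fold) and the signal transducer SMAD3 rose 1.91-fold. ID1 and ID3, direct targets of BMP signalling, fell: ID1 read 359.7, 326 and 309 CPM and 136, 109 and 96.1 CPM, and ID3 547, 559 and 523 CPM and 169, 133 and 129 CPM. Neither overlapped, and the falls were 2.91-fold and 3.78-fold (adjusted p = 3.19e-09 and 1.09e-12). In the Wnt list 13 of 46 rose and 22 fell, with a median log2 change of -0.33. FZD8, a Wnt receptor, had the steepest fall of any gene that the naming rule picked, from 40.6, 41.4 and 38 CPM to 1.94, 3.07 and 2.4 CPM (16.2-fold, log2 -4.02 ± 0.10, adjusted p = 6.39e-27). FZD1 fell 1.96-fold and the transcription factors TCF7 and LEF1 1.96-fold and 5.53-fold, whereas the ligand WNT5A rose from 24.9, 28.8 and 24.1 CPM to 237, 173 and 230 CPM (8.25-fold, adjusted p = 1.79e-15).

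Growth factors and EGF receptor ligands rose in 22 of 39 tested cases and fell in 9 (median 0.25), or 17 and 11 with upper-quartile factors. VEGFA, which drives vessel growth, read 141, 143 and 124 CPM and 883, 736 and 1018 CPM (6.47-fold, adjusted p = 5.08e-13). The EGF receptor ligands HBEGF and EREG rose 8.8-fold and 6.8-fold, and so did ERRFI1, an inhibitor of the same receptor, by 8.83-fold (adjusted p = 2.19e-11, 1.47e-12 and 8.55e-13). PDGFB appeared from 0.19, 0.0301 and 0.157 CPM to 4.37, 5.95 and 5.62 CPM, while PDGFA fell from 20.3, 18.4 and 18.5 CPM to 7.33, 9.13 and 8.19 CPM (adjusted p = 5.6e-18 and 9.98e-15).

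Immediate-early and AP-1 genes rose in 30 of 46 tested cases and fell in 12 (median 0.81). IER3, a stress-induced survival gene, rose 8.79-fold, the ERK phosphatase DUSP5 6.75-fold, the nuclear receptor NR4A3 7.66-fold, and CEBPB and CEBPD, factors that act with NF-κB on cytokine promoters, 5.79-fold and 3.83-fold. The AP-1 subunits parted: FOSL1 read 139, 138 and 125 CPM and 333, 302 and 357 CPM and JUNB 93.9, 122 and 98.5 CPM and 201, 167 and 211 CPM, both higher with IL-1, whereas JUN read 161, 178 and 151 CPM and 67.6, 63.3 and 76.1 CPM and FOSL2 248, 241 and 252 CPM and 85.9, 73.8 and 77.1 CPM, both lower. None of these 4 pairs overlapped, and the log2 changes were 1.31 ± 0.056, 0.88 ± 0.10, -1.24 ± 0.059 and -1.64 ± 0.048 (adjusted p = 6.01e-18, 2.53e-07, 5.54e-17 and 1.33e-25). EGR1 fell from 382, 585 and 449 CPM to 365, 191 and 339 CPM (1.58-fold, adjusted p = 0.00424), a call lost when the 6 libraries were fitted alone (adjusted p = 0.178).

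Of 35 tested genes of calcium entry and NFAT signalling, 12 rose and 10 fell (median -0.066), or 10 and 15 with upper-quartile factors. The shares of all genes were 28.5% and 30.9%, so the list as a whole did not stand out. TRPC6, a stretch-related cation channel, rose from 0.221, 0.331 and 0.287 CPM to 9.14, 6.03 and 6.97 CPM (25.9-fold), PIEZO1, the mechanosensitive channel, from 209, 227 and 209 CPM to 288, 281 and 295 CPM (1.34-fold, adjusted p = 7.49e-11), and RCAN1, a feedback inhibitor of calcineurin, fell 1.6-fold (adjusted p = 1.52e-06). The small GTPases GEM and RRAD rose 3.04-fold and 1.52-fold. Targets of YAP and TEAD, factors that respond to cell tension, rose in 10 of 30 cases and fell in 17 (median -0.16), 3 and 6 of them over 2-fold, or 6 and 18 with upper-quartile factors. CTGF (CCN2), the standard target, fell from 1955, 1976 and 1793 CPM to 389, 304 and 322 CPM, and CYR61 (CCN1) from 709, 740.1 and 653 CPM to 230.1, 124 and 213 CPM. Every IL-1 well was below every control for both, with log2 changes of -2.50 ± 0.066 and -1.89 ± 0.14 (adjusted p = 8.85e-19 and 2.96e-09).

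Actin and contractile genes fell in 25 of the 39 tested entries (38 genes, since MYL6 has 2 identifiers) and rose in 5, with a median log2 change of -0.23, or 31 and 2 with upper-quartile factors. Of the falls 3 were over 2-fold. ACTB read 3601, 3616 and 3494 CPM and 2889, 2956 and 2939.5 CPM, ACTA2, the smooth muscle actin of myofibroblasts, 1008, 903 and 959 CPM and 714, 853 and 731 CPM, and TAGLN 1115, 1092 and 1054 CPM and 879, 985 and 913 CPM. The groups did not overlap for these 3 genes, yet the falls were 1.22-fold, 1.25-fold and 1.17-fold (adjusted p = 1.56e-10, 7.27e-05 and 1.03e-05). SYNPO2, an actin-bundling protein, and LMOD1, an actin nucleator of smooth muscle, fell 2.81-fold and 2.13-fold (adjusted p = 4.51e-20 and 8.21e-14). MYH11, smooth muscle myosin, rose from 4.08, 4.67 and 4.39 CPM to 17.5, 19.5 and 16.9 CPM (4.1-fold, adjusted p = 4.56e-19). Of the 11 tested mural markers 1 rose, MYH11, 5 fell, CSPG4, CNN1, LMOD1 and ACTG2 among them, and 5 did not pass, while the mural sum was lower with IL-1 as given above. For these 6 genes the share of mural cells and the level per cell cannot be told apart.

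Integrins and adhesion molecules rose in 15 of 33 tested cases and fell in 5 (median 0.17), or 12 and 9 with upper-quartile factors (median 0.0411). VCAM1, which binds leukocyte integrins, read 18.4, 26.8 and 20.2 CPM and 415, 352 and 330.1 CPM (16.8-fold, adjusted p = 1.53e-14), and ICAM1 156, 169.5 and 151 CPM and 656, 619.5 and 626 CPM (3.99-fold, adjusted p = 1.79e-28). Both were far above the controls in each well. The matrix receptors ITGAV and ITGA5 rose 2.34-fold and 1.78-fold. Complement and coagulation genes rose in 9 of 18 cases and fell in 1 (median 0.34), or 7 and 2 with upper-quartile factors. F3, the tissue factor that starts clotting, rose from 24.9, 22.8 and 17.9 CPM to 180.1, 153 and 245 CPM (8.85-fold, adjusted p = 3.22e-11), and PLAUR, the urokinase receptor, 2.65-fold. C3 and CFB, components of the alternative pathway, stayed low but rose 10.2-fold and 9.56-fold, to means of 2.53 ± 0.438 and 8.97 ± 1.43 CPM (SD, n = 3).

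Cell cycle genes fell in 37 of 47 tested cases and rose in 5, with a median log2 change of -0.49. CCND1 (cyclin D1), which drives entry into the cycle, read 246, 247 and 248 CPM and 85.4, 80.3 and 91.8 CPM, without overlap (2.88-fold lower, adjusted p = 1.41e-24). CDC6, a licensing factor, fell 2.41-fold. Not all replication genes went down: PCNA rose 1.81-fold, from 104, 84.2 and 102 CPM to 175, 188 and 162 CPM, and MCM10 2.31-fold (adjusted p = 1.89e-10 and 2.51e-15). CDKN1A, the inhibitor p21, rose 1.78-fold. Genes of cell death and survival rose in 20 of 36 cases and fell in 11 (median 0.14), or 14 and 13 with upper-quartile factors (median 0.0108). MCL1, a survival protein, rose from 423, 451 and 413 CPM to 1659, 1679 and 1808 CPM, and CFLAR, which blocks caspase-8, from 51.9, 62 and 55.2 CPM to 216, 204 and 210.2 CPM (4.0-fold and 3.73-fold). Death-promoting genes rose beside them: FAS by 4.19-fold and MLKL by 3.88-fold (adjusted p = 1.74e-25 and 2.87e-27). GADD45A, a stress gene of growth arrest, fell from 52.7, 46.2 and 48.6 CPM to 7.23, 6.06 and 6.06 CPM (7.61-fold, adjusted p = 1.54e-26).

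ATF4 and ER stress genes rose in 24 of 35 cases and fell in 4 (median 0.29), or 20 and 8 with upper-quartile factors. Among them were TRIB3, a pseudokinase induced by ATF4, up 6.95-fold, the cystine importer SLC7A11 up 3.51-fold and the chaperone HSPA5 up 1.43-fold from a mean of 642 ± 28.6 CPM (SD, n = 3). Antioxidant genes rose in 13 of 27 cases and fell in 3 (median 0.12), but 8 rose and 9 fell, with a negative median, under upper-quartile factors. SOD2, the mitochondrial superoxide dismutase and a classical NF-κB target, read 192, 238 and 199.7 CPM and 4784, 4353 and 3928 CPM, far apart in every well (20.8-fold, adjusted p = 9.26e-17). MT2A, a metallothionein, and TXNRD1, a thioredoxin reductase, rose 9.78-fold and 3.13-fold. Glycolysis and hypoxia genes rose in 15 of 32 cases and fell in 7 (median 0.066), or 10 and 13 with a negative median under upper-quartile factors. Cholesterol and lipid synthesis genes rose in 15 of 30 cases and fell in 7 (median 0.11), or 12 and 10 with a negative median under upper-quartile factors. ACOD1, which makes itaconate and is best known from macrophages, had 0 reads in all controls and 7.1, 5.62 and 4.3 CPM with IL-1, at least 195-fold higher against 3 reads over the stretched group (adjusted p = 1.12e-07). HK2 rose 3.22-fold, HIF1A 2.19-fold, LDHA 1.84-fold and INSIG1 1.3-fold.

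Genes of zone and joint identity, mostly HOX and other patterning factors, fell in 16 of 27 tested cases and rose in 2, with the lowest median of the 29 lists (-0.65). HOXD9 read 14.3, 16.3 and 15.7 CPM and 5.36, 7.08 and 5.92 CPM, HOXC8 2.34, 3.01 and 2.32 CPM and 0.716, 0.694 and 0.609 CPM, and the HOX cofactor MEIS1 2.97, 2.59 and 2.95 CPM and 0.955, 1.13 and 0.947 CPM. None overlapped, and the falls were 2.53-fold, 3.78-fold and 2.81-fold (adjusted p = 5.61e-14, 6.87e-08 and 1.18e-09). PRRX1, a mesenchymal factor, was at 1447, 1536 and 1555 CPM and 1567, 1563 and 1485 CPM with overlapping groups (adjusted p = 0.678; with upper-quartile factors it passed as a fall of 0.11 on the log2 scale).

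The largest changes also reached genes outside these lists. RND1, a small GTPase that loosens adhesion, rose from 1.36, 2.26 and 1.88 CPM to 273, 317 and 259.8 CPM, and TNFRSF11B (osteoprotegerin), the decoy for RANKL, from 0.0316, 0.391 and 0.183 CPM to 30.1, 28.3 and 28.1 CPM. Both were near silent in the controls and changed 153-fold and 139-fold (adjusted p = 1.47e-15 and 5.56e-25). FCHO1, an endocytosis protein, and P2RX1, an ATP-gated channel, rose 151-fold and 158-fold, to 21.2 ± 0.516 and 5.25 ± 0.0978 CPM (SD, n = 3). Among falls, DIO2, which activates thyroid hormone, dropped from 502, 598 and 563 CPM to 65, 75.6 and 59.3 CPM, and SLC40A1 (ferroportin), the iron exporter, from 181, 186 and 205 CPM to 33.4, 37.4 and 33.3 CPM. The groups stood well apart, at 8.33-fold and 5.5-fold (adjusted p = 1.37e-12 and 1.47e-18). KCNE4, a potassium channel subunit, fell 11.8-fold, the transcription factors ATOH8 and DLX5 9.84-fold and 6.68-fold, the protocadherins PCDH1 and PCDH18 9.09-fold and 6.28-fold, LRIG3 8.9-fold, S1PR1, a sphingolipid receptor, 6.57-fold, CBFA2T3 6.45-fold, TRERF1 5.6-fold and PRICKLE2 5.25-fold. A gene without a symbol, ENSSSCG00000037358, chosen after its values were seen, gained the sixth most reads of all called genes, from 85.8, 145 and 84.3 CPM to 2531, 2437 and 2038 CPM (log2 change 4.47 ± 0.26, adjusted p = 8.01e-11).

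The same IL-1 dose in outer zone cells that were not stretched shows where the stretched response differs. Those 6 libraries are other wells, so the comparisons share no sample. In the titles their groups carry prefix numbers of their own. A difference between the effects thus cannot be told apart from whatever those numbers stand for. Without stretch, 1120 genes rose over 2-fold (8.20%) and 983 fell (7.20%). The lists shared 785 raised genes, 89.6% of those raised in stretched and 70.1% of those raised in unstretched cells, and 543 lowered genes, 70.5% and 55.2%. Only 3 genes were called in opposite directions. Over the genes raised without stretch the median log2 change was 1.89 there and 1.45 in stretched cells, and over those lowered without stretch -1.46 and -1.07, values that favour the group that chose the genes. The difference itself, the IL-1 effect in stretched minus that in unstretched cells, passed an adjusted p of 0.05 in edgeR for 1796 genes (13.2%), 737 with a more positive effect under stretch (5.40%) and 1059 with a more negative one (7.76%); with upper-quartile factors, 56.8% rather than 41.0% of the calls were more positive. Among the 876 genes raised in stretched cells, the effect was smaller than without stretch for 232 and larger for 69. Among the 770 lowered it was less negative for 87 and more negative for 41.

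Interferon-stimulated genes stood out in that difference: the IL-1 effect was smaller under stretch for 37 of 55 tested members (range 26 to 46 when 1 stretched library was left out), against 7.76% of all genes, and the list's median log2 change was 1.35 with stretch and 2.44 without. Their summed level in unstretched wells was 2204, 2491 and 2411 CPM without and 13170.4, 12604 and 14545 CPM with IL-1. Each stretched well with IL-1 thus stayed below each unstretched well with IL-1. GBP1, an interferon-induced GTPase, read 10.5, 13.8 and 12.6 CPM and 178, 172 and 203 CPM without stretch, and 4.81, 5.84 and 5.17 CPM and 28.3, 16 and 13.8 CPM with it. The IL-1 wells under stretch all lay below the unstretched ones (ratio of means, stretched to unstretched, 0.105), and the difference in effect was -2.03 ± 0.37 on the log2 scale (adjusted p = 0.00113). CXCL10 had a ratio of 0.0985, from 315 CPM to 31 CPM, and a difference in effect of -1.05 ± 1.38 (adjusted p = 0.711). STAT2, which did not pass under stretch, rose without it, by 0.82 ± 0.068 on the log2 scale (difference -0.87 ± 0.10, adjusted p = 2.67e-07), and IRF1 differed by -0.82 (adjusted p = 0.0105). MHC class I antigen processing followed, with a smaller effect for 13 of 16 members and medians of 0.98 and 1.49. The largest negative differences under the naming rule were in TNFSF13B (BAFF; -3.11 ± 0.72), PLEKHA7 (-2.97 ± 0.55), STEAP4 (-2.54 ± 0.44), GBP1, NLRC5 (-1.98 ± 0.47), C3 (-1.83 ± 0.51), RASGEF1B (-1.76 ± 0.39) and TMEM140 (-1.69 ± 0.48). Several of these are low under stretch, and single control wells decide them: the call for TNFSF13B was lost without control well 5, for NLRC5 without well 6, for C3 without well 4 (adjusted p = 0.16) and for TMEM140 without any of the 3, while the IL-1 effect on TMEM140 itself was lost without IL-1 well 4.

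**Figure D3:**
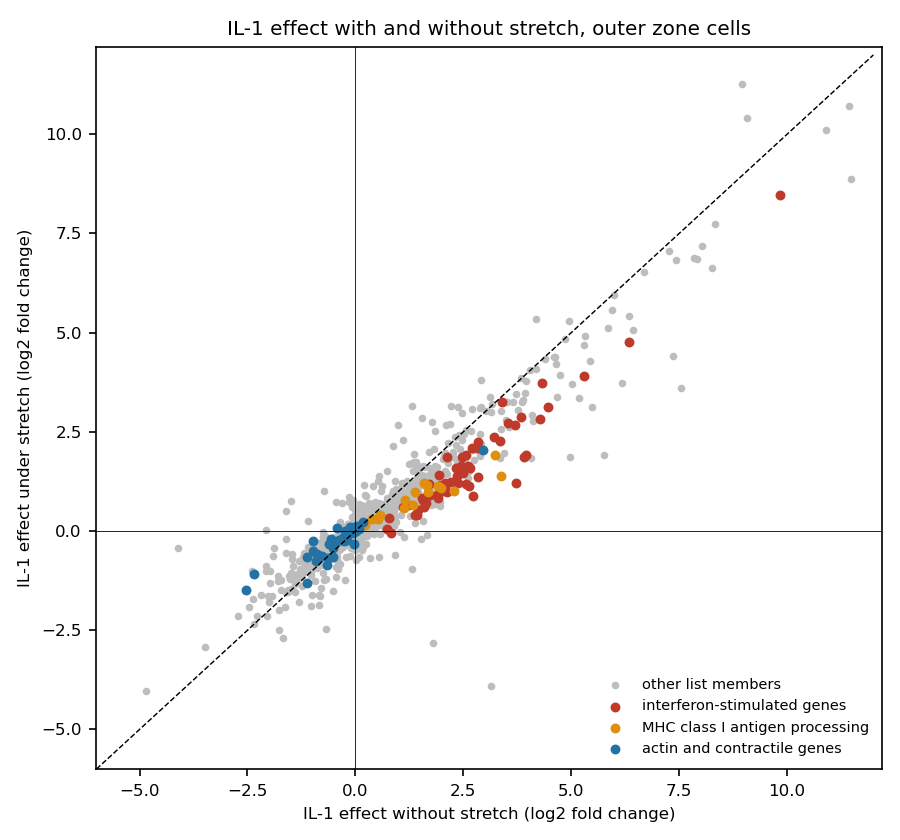
Log2 change with IL-1 of each tested list member in unstretched outer zone cells (horizontal) and in stretched outer zone cells (vertical), with interferon-stimulated genes in red, MHC class I genes in orange, actin and contractile genes in blue, the other list members in grey and a dashed line where the effects are equal. Most red points lie below the line, with medians of 2.44 without and 1.35 with stretch.

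Chemokines showed a smaller IL-1 effect under stretch for 5 of 14 members, and for some of them the control level moved rather than the level with IL-1. CXCL8 read 4.31, 2.25 and 3.27 CPM without stretch and 12.1, 9.81 and 9.37 CPM with it in the absence of IL-1, and 1044, 999 and 965 CPM and 1033, 968 and 1092 CPM in its presence. The wells with IL-1 overlapped, whereas the stretched controls were all above the unstretched ones, and the effect differed by -1.63 ± 0.27 (adjusted p = 0.000517). CXCL2 and AMCF-II differed by -0.91 and -1.27 (adjusted p = 0.000428 and 6.12e-06). Other lists also had many members with a more negative effect under stretch, against 7.76% of all genes. They were ATF4 and ER stress (17 of 35), cell death and survival (13 of 36) and antioxidant genes (9 of 27). More positive there were 1, 5 and 0 members. With upper-quartile factors the more negative and more positive members numbered 14 and 2, 11 and 8, and 6 and 0, in that order. CTGF, whose fall was steeper under stretch, differed by -0.73 ± 0.089 (adjusted p = 5.88e-06).

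In the other direction, tissue factor responded more under stretch. F3 read 38.6, 40.2 and 40 CPM and 103, 101 and 92.7 CPM without stretch and 24.9, 22.8 and 17.9 CPM and 180.1, 153 and 245 CPM with it, so the stretched controls were the lowest and the stretched wells with IL-1 the highest of the 4 groups. The effect differed by 1.83 ± 0.24 on the log2 scale (adjusted p = 3.88e-05). BCL3, an NF-κB cofactor, read 31.2, 29.1 and 28.1 CPM and 59, 58.6 and 56.4 CPM without stretch and 8.07, 6.5 and 6.6 CPM and 47.2, 42.7 and 45.6 CPM with it, a difference of 1.70 ± 0.11 (adjusted p = 1.64e-12). Its larger fold under stretch went with lower controls, since its wells with IL-1 were also lower there. For 6 other genes picked by the rule the effect was a fall that was smaller under stretch: LMCD1 (1.93 ± 0.31), TOX (1.93 ± 0.23), EFNA1 (1.88 ± 0.29), ZNF395 (1.41 ± 0.29), the BMP antagonist NOG (1.38 ± 0.25) and FAM46C (1.38 ± 0.33). Actin and contractile genes had a more positive effect under stretch for 13 of 39 entries (5.40% of all genes), SYNPO2 among them (1.03 ± 0.091, adjusted p = 1.15e-09), and so did 9 of 22 cartilage transcription factors, NFATC2 included (0.42 ± 0.083, adjusted p = 0.000378).

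**Figure D4:**
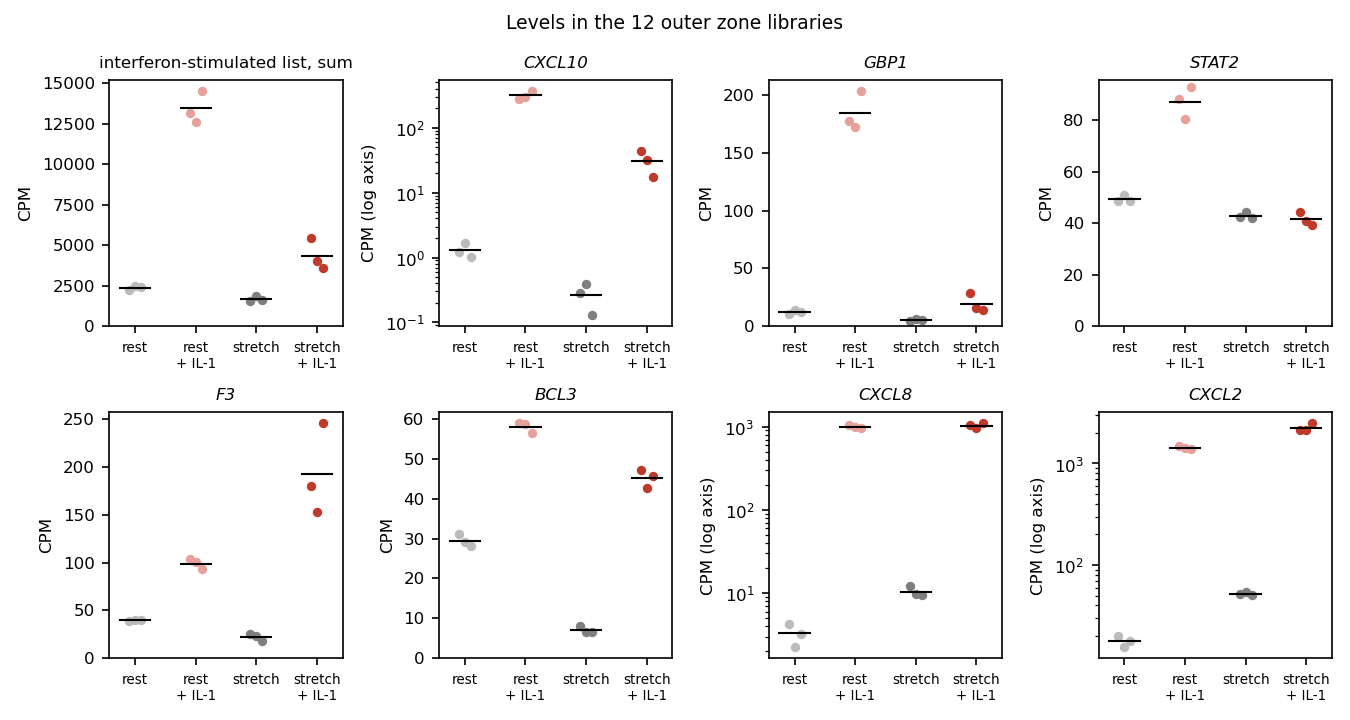
Level in each of the 12 outer zone libraries (4 groups of 3 wells: unstretched, unstretched with IL-1, stretched, stretched with IL-1) of the summed interferon-stimulated gene list, CXCL10, GBP1, STAT2, F3, BCL3, CXCL8 and CXCL2, in CPM. The interferon panels drop from the unstretched to the stretched wells with IL-1, CXCL8 with IL-1 is level between them and F3 is highest in the stretched wells with IL-1.

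In stretched inner zone cells, from the part of the meniscus nearest its free edge, the same treatment raised 825 genes over 2-fold (6.04%) and lowered 493 (3.61%). The zones shared 688 raised genes, 78.5% of those raised in the outer and 83.4% of those raised in the inner zone, and 386 lowered genes, 50.1% and 78.3%, with 1 gene called in opposite directions. The outer minus inner difference in the IL-1 effect passed for 711 genes (5.21%), 316 more positive in the outer zone (2.31%) and 395 more negative (2.89%). Of the 876 raised genes the rise was larger in the outer zone for 122 and smaller for 56. Of the 770 lowered genes the fall was deeper for 86 and shallower for 7. Both sets were chosen in the outer zone, which favours a larger effect there. Interferon-stimulated genes did not separate the zones: 0 of 55 passed in edgeR and 0 with DESeq2, 1 had an unadjusted p under 0.05, and the medians were 1.35 in outer and 1.23 in inner cells.

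Among the genes that the naming rule admits, which need a symbol, 5 CPM and a call for IL-1 in the stretched outer cells, CSF3 differed most. It read 0.247, 0.249 and 0.157 CPM and 2.63, 1.88 and 2.04 CPM in the stretched inner wells without and with IL-1, against 0.19, 0.15 and 0.0783 CPM and 22.3, 18.7 and 20.1 CPM in the outer wells. The controls were alike and low, and each outer well with IL-1 stood above each inner one. The difference was 3.91 ± 0.61 on the log2 scale (adjusted p = 6.01e-05). TNFAIP6 read 12.4, 10.9 and 11.4 CPM and 72.4, 76.9 and 69.8 CPM in inner cells and differed by 1.28 ± 0.14 (adjusted p = 4.89e-06). The kinase SIK1, which restrains CREB coactivators, rose 20.7-fold in outer cells and differed by 1.28 ± 0.24. RHCG, an ammonium transporter, differed by 1.38 ± 0.27, BCAS1 by 1.31 ± 0.20, the neurofilament NEFH by 1.23 ± 0.33, RGS16, a brake on G protein signalling, by 1.18 ± 0.22 and FAM117A by 1.13 ± 0.18. The NEFH call was lost without control well 5 (adjusted p = 0.0581).

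For other genes the log2 effect of IL-1 was more negative in the outer than in the inner zone. HES1, a Notch target, read 1.43, 1.46 and 1.63 CPM and 23.1, 19.4 and 19.5 CPM in inner cells against 11.6, 9.42 and 8.93 CPM and 42.2, 37.2 and 42.8 CPM in outer cells, a difference of -1.74 ± 0.16 (adjusted p = 1.12e-08). The inner controls were the lowest group. BMP2 read 2.56, 2.98 and 2.79 CPM and 37, 36.8 and 32.1 CPM in inner cells, with a difference of -1.24 ± 0.20 (adjusted p = 6.31e-05), and NFKBIZ differed by -1.08 ± 0.15 (adjusted p = 0.000199). FAM84A differed by -1.54 ± 0.33, BHLHE41, a circadian repressor, by -1.12 ± 0.12, the carboxypeptidase gene CPM by -1.10 ± 0.29, CBFA2T3 by -1.03 ± 0.25 and PDGFA by -0.99 ± 0.11. For CBFA2T3 and PDGFA the difference was a deeper fall in the outer zone. The call for the carboxypeptidase was lost without control well 5 and in a fit of the 12 stretched libraries alone (adjusted p = 0.115 and 0.064). By list, a more negative outer effect was found for 6 of 27 NF-κB genes and 3 of 14 chemokines, against 2.89% of all genes. It was also found for 5 of 27 identity genes (3 more positive) and 5 of 30 YAP and TEAD targets (0 more positive). The TGF-β and BMP list had 6 of 36 and the actin list 6 of 39, each with 1 more positive. A more positive outer effect was found for 8 of 35 ATF4 and ER stress genes and 5 of 40 matrix-degrading enzymes, against 2.31% of all genes. Wnt and immediate-early genes each had 5 of 46, with 2 and 6 more negative.

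**Figure D5:**
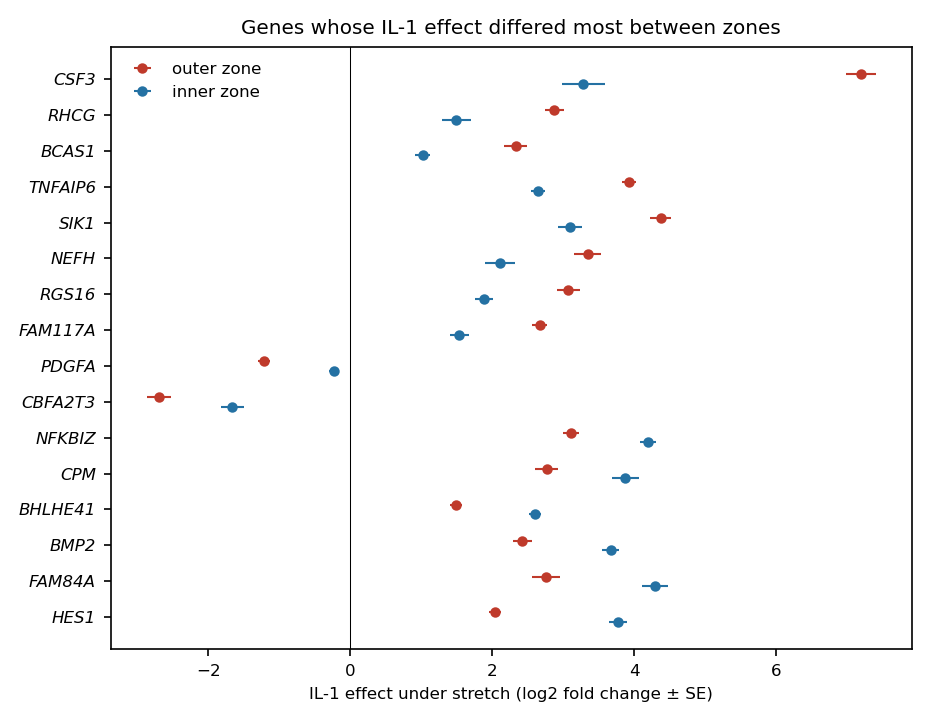
Log2 change with IL-1 (± SE) of 16 genes in stretched cells, red for the outer and blue for the inner zone, in the order of the difference between zones. CSF3 has the widest gap in favour of the outer zone (3.91) and HES1 in favour of the inner zone (-1.74).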

How the data were processed

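Stranded mRNA libraries were sequenced from 24 wells of cultured pig meniscus cells, 3 in each of 8 groups. The authors trimmed the reads with Trim Galore and cutadapt, mapped them with STAR to the genome and transcriptome of Sscrofa11.1v91, kept unique mappers and counted them per gene with HTSeq, and the deposited counts are whole numbers that were not normalised. Tool versions and the strand setting of the counting are not given in the sources used here. Reads that map to several places were dropped, which lowers genes with close copies. A second deposited table, counts divided by a size factor for each library, was not used. All 24 columns of counts were mapped to samples by their titles.

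The 13653 genes that reached 10 reads in some library were tested in R 4.3.3 by the quasi-likelihood F-test of edgeR 4.0.16 (with limma 3.58.1), robust and two-sided, on TMM factors and 8 group means over 24 libraries, with 16 residual degrees of freedom and Benjamini-Hochberg adjustment over all of them. Calls needed an adjusted p under 0.05 and, for the IL-1 effect, a change over 2-fold. Each SE is the log2 change over the root of the F statistic, which is unreliable near a change of 0. The difference between IL-1 effects was a contrast in the same fit. Between wells of a group, chi-square per degree of freedom was 5.00 to 9.56, so no pair was a duplicate library, and edgeR put the common biological coefficient of variation at 0.0472. The fit was also run on simulated counts with 50 genes changed at each fold, up and down in equal number. It found 45 at 1.5-fold, 49 at 2-fold, 50 at 3-fold and 50 at 4-fold. False calls numbered 11, or 5.37% of calls. Far fewer genes changed there than the 59.4% that passed in the data, so the run could not test the scaling.

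The text names the genes the study measured by RT-qPCR, the 15 largest rises and falls among calls that carry a symbol, reach 5 CPM and have wells that do not overlap, in every list the 4 or fewer passing members that changed most and the members that reach 100 CPM, and the 8 largest differences in each direction from unstretched and from inner zone cells. Not every gene that this rule admits is printed, and some genes are not reported here. The members, the 29 gene lists, the 5 marker lists and the tests were chosen with earlier results of these data known. Of 1060 list members, 914 were tested. Gene names came with the counts for 11654 genes and from a separate reference matched by gene identifier for 809, and 1190 had none. Promoters, gene starts and coordinates are those of RefSeq on Sscrofa11.1. Alternatives covered scaling, DESeq2 1.42.0, filters, samples in the fit, thresholds, a replicate block and leaving out each stretched outer library.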

Additional observations from a re-analysis of the deposited data

Results flagged for a closer look

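The IL-1 effect differed between stretched and unstretched outer zone cells for 1796 genes, by a contrast of the 2 effects in edgeR at an adjusted p under 0.05. Among the genes named by the rule, the log2 difference (stretched minus unstretched) was 1.83 for F3, 1.70 for BCL3, 1.93 for LMCD1, 1.93 for TOX, 1.88 for EFNA1, 1.41 for ZNF395, 1.38 for NOG and 1.38 for FAM46C. It was -3.11 for TNFSF13B, -2.97 for PLEKHA7, -2.54 for STEAP4, -2.03 for GBP1, -1.98 for NLRC5, -1.83 for C3, -1.76 for RASGEF1B and -1.69 for TMEM140. By fold, F3 and BCL3 rose more with IL-1 under stretch, the next 6 genes fell less, and the last 8 rose less. For BCL3 the controls were lower under stretch, and the wells with IL-1 were lower too.

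The effect also differed between outer and inner zone cells under stretch, for 711 genes by the same kind of contrast. The log2 difference (outer minus inner) was 3.91 for CSF3, 1.38 for RHCG, 1.31 for BCAS1, 1.28 for TNFAIP6, 1.28 for SIK1, 1.23 for NEFH, 1.18 for RGS16 and 1.13 for FAM117A, each of which rose more in the outer zone. It was -1.74 for HES1, -1.54 for FAM84A, -1.24 for BMP2, -1.12 for BHLHE41, -1.10 for the carboxypeptidase gene CPM and -1.08 for NFKBIZ, which rose by a smaller fold there. It was -1.03 for CBFA2T3 and -0.99 for PDGFA, which fell further there. In each case the difference itself was tested. No group holds more than 3 libraries, so no test for outlying wells was run. Control well 5 held the highest control values of MMP3 and MMP13. Leaving it out lost 7 single-gene calls, the most of any alternative, out of 19 lost in all.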

How the results depend on the processing

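The count of genes called for IL-1 in stretched outer zone cells, 1646, stood at 1769 with upper-quartile factors, 1638 with RLE factors, 1593 with DESeq2, 1695 without the filter on low counts, 1576 with filterByExpr, 1615 in the fit of the 12 outer zone libraries and 1599 in that of the 6 libraries. It moved to 900 (629 up, 271 down) when the test asked for a change beyond 2-fold and to 8107 (3886 up, 4221 down) with no bound on the fold, both by construction of the threshold. An alternative chosen after seeing the data, which kept only genes with a mean of at least 1 CPM, gave 1136 (672 up, 464 down). Leaving out 1 stretched library at a time gave 1530 to 1675. The count of genes whose effect differed from unstretched cells, 1796, ranged from 1530 to 1904 over the other fits and from 1517 to 1832 without 1 library. The zone difference, 711, ranged from 539 to 799 and from 503 to 837. With upper-quartile factors 43.6% of the calls in stretched cells were rises in place of 53.2%, and 361 list members rose and 341 fell in place of 426 and 251; the cause was not tested.

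Wells of the groups compared share the numbers 4 to 6. The deviations of same-numbered wells correlated at -0.157, -0.214 and 0.0104 over 9683 genes. For wells with different numbers the values ran from -0.134 to 0.236. No pairing by number was seen, but with 3 wells in a group the check cannot exclude it. With the well number as a replicate block, 1631 genes were called, 1749 and 690 differed from unstretched and from inner cells, and 679 list members in place of 677 passed. Of 3286 values of single genes under the alternatives, 3256 kept their side of the threshold, 19 lost the call and 11 gained one. Among values that passed in the main fit, 0 changed sign. Changes of sign among values that did not pass there were not counted. Depth limits the 418 calls under 1 CPM, whose folds rest on few reads.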
